A study of Mus musculus with 24 samples.

Results

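First-intron peaks were the regions of open chromatin that the deposited annotation places in intron 1 of a transcript and more than 1000 bp from the nearest transcription start site (TSS). The rule used annotation text and distance only, and 25277 of the 150646 consensus peaks (16.8%) met it. The assay was ATAC-seq, where a transposase, Tn5, places adapters into DNA that nucleosomes leave exposed, and the material was epithelium of the small intestine from aged and young C57BL/6JRj mice. Aged and young had 3 libraries each, numbered 1, 2 and 4. The labels of these libraries say only aged and young; ages of 20 to 22 months and 2 to 3 months stand in the design text of the series, in sentences on other assays. The cells of both ages were taken straight from the intestine with EDTA and trypsin, sorted as EpCam-positive and CD45-negative, and their libraries amplified by PCR. The labels name no genetic or drug treatment, and nothing in them ties a library to a mouse of its own. The p-values below therefore speak of library-to-library spread, which may be technical. The wider study asks about inflammation in the aged intestine and its stem cells.

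The first intron follows the first exon and is often the longest intron of a gene. In mammalian genes it commonly holds enhancers, which are stretches of DNA bound by transcription factors that raise the activity of a promoter near or far away, and it can also hold the start sites of shorter transcripts or of other genes. Open chromatin at such a place shows that DNA is accessible to proteins, not which gene it serves. Bulk ATAC-seq averages over all cells of a library, so fewer cells with an open site and less open chromatin per cell cannot be told apart.

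The intron peaks themselves are given by position, and the sequences shown are RefSeq windows of 300 bases around a start site (250 before and 50 after it, GRCm38.p6, written 5′ to 3′ on the gene's strand). The first was chosen because a first-intron peak that fell in the aged libraries lies on it. In this window, chr10:128737563-128737862 on the minus strand, the start of a transcript of Dgka (diacylglycerol kinase alpha, which phosphorylates diacylglycerol), capitals mark the 103 bases inside the peak.
Dgka: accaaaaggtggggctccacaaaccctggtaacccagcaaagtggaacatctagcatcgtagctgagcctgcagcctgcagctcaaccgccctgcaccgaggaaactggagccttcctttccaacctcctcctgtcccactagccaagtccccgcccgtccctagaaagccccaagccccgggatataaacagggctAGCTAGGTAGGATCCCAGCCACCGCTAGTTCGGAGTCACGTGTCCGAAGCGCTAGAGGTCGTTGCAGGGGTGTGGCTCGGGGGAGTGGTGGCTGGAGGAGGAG
The capital stretch holds the 3′ end of the window, including the annotated start. The next 4 are the start windows of genes whose first intron changed apart from the promoter, with the smallest p in each direction, and they show the promoter side, which was not called. Capitals mark every match, on either strand, to 5 short motifs: TATAAA, known as the TATA box, then the CCAAT box, then GGGCGG, known as the GC box, then CCGGAA, which is the core of sites for ETS factors, and TGANTCA, which AP-1 binds.
Hs3st2: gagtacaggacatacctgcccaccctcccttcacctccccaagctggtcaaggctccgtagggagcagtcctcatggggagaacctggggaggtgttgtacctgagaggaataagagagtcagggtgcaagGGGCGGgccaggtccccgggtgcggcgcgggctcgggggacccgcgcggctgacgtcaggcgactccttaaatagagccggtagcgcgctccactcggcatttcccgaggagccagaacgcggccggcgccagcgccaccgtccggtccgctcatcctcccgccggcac
Kif11: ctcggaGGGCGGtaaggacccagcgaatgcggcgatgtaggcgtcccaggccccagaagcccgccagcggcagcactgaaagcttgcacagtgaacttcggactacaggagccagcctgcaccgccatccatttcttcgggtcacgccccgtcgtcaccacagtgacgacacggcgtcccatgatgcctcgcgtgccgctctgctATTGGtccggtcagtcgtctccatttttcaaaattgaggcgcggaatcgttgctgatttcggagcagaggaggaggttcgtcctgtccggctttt
Lrrc8b: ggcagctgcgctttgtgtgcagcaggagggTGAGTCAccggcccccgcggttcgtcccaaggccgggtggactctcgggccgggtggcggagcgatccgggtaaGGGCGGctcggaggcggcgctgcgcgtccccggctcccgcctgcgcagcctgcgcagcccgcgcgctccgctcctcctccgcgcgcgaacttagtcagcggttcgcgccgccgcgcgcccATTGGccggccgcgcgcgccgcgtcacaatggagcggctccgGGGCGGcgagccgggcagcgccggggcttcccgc
Zfp809: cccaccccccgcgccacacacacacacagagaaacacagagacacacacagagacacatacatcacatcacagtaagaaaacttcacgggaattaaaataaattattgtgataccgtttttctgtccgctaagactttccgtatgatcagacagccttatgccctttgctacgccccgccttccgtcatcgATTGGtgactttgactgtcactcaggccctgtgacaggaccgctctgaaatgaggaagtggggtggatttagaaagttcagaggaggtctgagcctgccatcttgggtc
The windows lie at chr7:121392046-121392345 (Hs3st2), chr19:37376132-37376431 (Kif11), chr5:105415525-105415824 (Lrrc8b) and chr9:22225453-22225752 (Zfp809), all on the plus strand. The Lrrc8b window was the richest in G and C, at 78.0%, against a median of 52.7% over all 32851 RefSeq windows, and it held 4 matches. The Kif11 window held 2 matches, and the Hs3st2 and Zfp809 windows 1 each. Over all windows, GGGCGG occurred in 35.7%, CCAAT in 37.4%, CCGGAA in 14.9%, TATAAA in 13.6% and TGANTCA in 7.81%. Peaks covered all 300 bases of the Kif11 and Lrrc8b windows, 174 bases of the Zfp809 window and 89 of the Hs3st2 window.

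The members had 7071 host genes, the genes whose intron they lie in, and 88.3% of them lay in protein-coding hosts. A host had a median of 2 members, 2910 hosts had 1, and the 523 hosts with 10 or more held 8724 members. Members were grouped by host gene, so those of 1 host may lie in first introns of different transcripts. Below, the intron of a host stands for all of these. The nearest TSS belonged to the host itself for 61.3% of members, and 37.5% lay upstream of their nearest TSS, which can only be a start inside the host or one of another gene. The median distance to that TSS was 12071 bp (quartiles 5097 and 27547 bp, largest 523539 bp). The members were narrow, with a median width of 206 bp (71 to 1781 bp), against 223 bp over all peaks. A second annotation field in the same table numbered the intron differently for 2970 members (11.7%), since an intron can be the first of one transcript and a later one of another. The host with the most members was Gm20388, a predicted gene model that spans others: its 255 members stretch over 4289715 bp of chromosome 8 and have 59 different nearest genes. Just outside the rule, in the bin that ends at 1000 bp, lay 259 first-intron peaks with a median of 3.20 CPM, the count scaled to library size, and just inside it, up to 1100 bp, lay 285 with a median of 3.24 CPM.

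Depth, as the total count in peaks, ran from 16900796 to 23935291 in the aged libraries and from 6149680 to 22819924 in the young ones. The median member held 32, 50 and 37 counts in the aged libraries and 43, 42 and 14 in the young ones, so young 4 stood apart by its depth. First-intron peaks took 12.5%, 12.9% and 13.1% of the counts of the aged libraries and 12.3%, 12.9% and 13.2% of those of the young libraries. The mean shares were 12.8% ± 0.271 in aged and 12.8% ± 0.469 in young libraries (SD, n = 3 each), a difference within the spread (exact two-sided permutation test, p = 0.9; 3 against 3 cannot go below 0.1). Promoter peaks of 13 of 15 epithelial markers summed to 563 to 620 CPM in aged and 557 to 651 CPM in young libraries. Of 30 leukocyte markers 5 had a promoter peak, namely Cd68, Cd79b, Cd8b1, Lyn and Runx3. The other 25, with Ptprc, Cd3e and Itgam among them, had none. The 5 summed to 76.6 to 86.4 CPM in aged and 70.2 to 75.7 CPM in young libraries. Most of it was at Lyn, a Src-family kinase, with 60.8, 64.6 and 65.8 CPM in aged and 59.1, 57.2 and 57.0 CPM in young. Cd8b1 was weak and did not overlap either, with 0.431, 0.543 and 0.568 CPM in aged and 0.229, 0.198 and 0.318 CPM in young. The ages overlapped at Cd68 (means 6.53 in aged and 4.82 in young), Cd79b (4.31 and 4.13) and Runx3 (5.25 and 5.88). Of the 5, 4 were tested and 0 called. The sums over 13 of 30 stromal, endothelial, muscle and neural markers were 64.7 to 68.3 CPM in aged and 64.9 to 70.3 CPM in young. Of 12 of these promoters tested 1 was called, that of Prox1, a transcription factor of lymphatic endothelium and of other cell types, with 3.20, 5.06 and 3.46 CPM in aged and 7.55, 6.64 and 7.64 CPM in young. Whether the leukocyte sum, which did not overlap between the ages, or the Prox1 promoter plays a part in the results was not tested.

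The comparison of ages asked which first introns were more or less accessible in aged epithelium. Most did not pass the test, and those that did were more often higher than lower in aged. Of 22070 tested members, 272 (1.23%) passed edgeR's quasi-likelihood test (and are named called here), with p adjusted after Benjamini and Hochberg over all tested peaks and a threshold of 0.05, against 1.6% of all 129588. Higher in aged were 199 (0.902%, against 1.07% of all peaks) and lower 73 (0.331%, against 0.528%). With the replicate number as a block the counts were 355 higher and 177 lower, and with DESeq2 115 and 44. Without aged 4 they were 119 and 64, without young 2 101 and 43, and without the shallow young 4 198 and 62. The median log2 fold change, aged over young, was 0.00 over the tested members. Aged and young libraries were fully separate for 13.6% of members, against 13.9% of all tested peaks.

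The share of calls that were higher in aged was 73.2% among first-intron peaks. It was 69.6% among peaks of later introns, 78.1% among intergenic peaks and 40.1% among peaks within 1000 bp of a TSS; the differences between these classes were not tested. The share called was 1.4% in later introns, 1.83% in intergenic peaks, 3.01% in exons and 1.44% within 1000 bp of a TSS. Per length, members were more open than the peaks of later introns and less than promoters, with a median level of 11.6 CPM per kb against 8.70 in later introns, 9.26 in intergenic and 22.1 in promoter peaks.

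**Figure D1:**
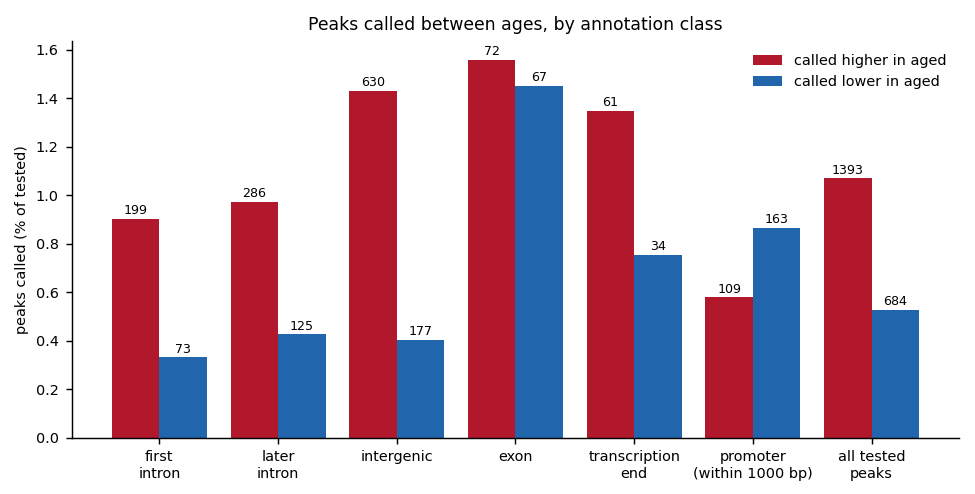
Peaks called higher (red) and lower (blue) in aged, as percent of the tested peaks of each annotation class (vertical axis, linear from 0), with the number called above each bar. First-intron peaks had 0.902% higher and 0.331% lower, and the peaks within 1000 bp of a start site were the class shown here with more lower than higher calls.

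Calls were found at all distances from the nearest TSS, which need not be that of the host, so these bands do not give the place within the intron. The share called was 1.22% of members 1000 to 5000 bp from the TSS, 1.23% from there to 20000 bp, 1.28% up to 100000 bp and 0.801% beyond. Levels per length were lower farther from the TSS, at medians of 16.1, 10.7, 9.88 and 8.86 CPM per kb in the same bands. Members in the only intron of their transcript had 1.67% called, 33 higher and 13 lower of 2752. Hosts annotated as long intergenic non-coding or antisense RNA had 16 higher and 4 lower of 1389 (1.44%), and protein-coding hosts 168 and 66 of 19551 (1.2%). On the X chromosome edgeR called 0 of 432 tested members, with 26 (6.02%) at an unadjusted p below 0.05, and DESeq2 called 0. With the replicate block 2 (0.463%) were called. On the autosomes edgeR called 272 of 21638 members (1.26%, and 2.45% with the block), with 8.12% at an unadjusted p below 0.05. The X members were less open, with a median of 8.30 CPM per kb against 11.7 on the autosomes, and whether their lower level plays a part was not tested. Of all 2679 tested X peaks, 0.859% were called, 6 higher and 17 lower.

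Among the 199 peaks called higher, which lie in 163 hosts, the median log2 fold change was 1.33, 132 exceeded 2-fold and 29 exceeded 4-fold. The ages did not overlap for 197 of them. Among the 73 called lower, in 67 hosts, the median was -1.36, 57 exceeded 2-fold and 16 exceeded 4-fold, and the ages overlapped for none of the 73. The same values decided the calls, so the separation of called peaks is description only. Over all tested peaks 13.9% were separate. The peaks of smallest p in each direction, described below, were picked from called peaks without overlap. That their ages are separate was fixed by this choice and is given only as description.

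Both of the first-intron peaks of Hs3st2 described next rose more than 4-fold. This gene encodes a sulfotransferase that adds 3-O-sulfate groups to heparan sulfate, a sugar chain of cell surfaces. A peak at chr7:121491161-121491503, 99036 bp from the TSS, had 3.02, 2.67 and 3.18 CPM in the aged libraries 1, 2 and 4, against 0.229, 0.297 and 0.159 CPM in the young ones, an order kept below. Its fitted fold change was 11.6 (log2 fold change 3.54 ± 0.36 SE; edgeR, adjusted p = 6.82e-08). A second peak at chr7:121489587-121489817 had 3.76, 3.38 and 2.61 CPM in aged, against 0.366, 0.0990 and 0 CPM in young, where the counts were 8, 2 and 0. All aged values of both peaks were far above all young ones. On the summed counts, 188 aged and 10 young, the second peak's young level was 0.0636 of the aged one (95% exact interval 0.030 to 0.120, counting error only). Of the host's 5 tested peaks 4 were called higher within 6102 bp, and all 5 lay above 0, with a median log2 fold change of 2.33. The one not called, at chr7:121478440-121478609, had a log2 fold change of 1.13 (adjusted p = 0.145). The weakest of the 4 calls, at chr7:121485402-121485539, was lost without aged 2 (adjusted p = 0.0994), young 1 (0.0633) or young 2 (0.136), and with DESeq2 (0.128).

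Shroom3, an actin-binding protein that drives apical constriction of epithelial cells, had the peak with the second smallest p among those called higher. At chr5:92856326-92856764 it had 4.75, 5.47 and 5.28 CPM in aged libraries against 0.824, 0.693 and 1.11 CPM in young ones (log2 fold change 2.66 ± 0.25, adjusted p = 1.75e-08). The aged values were all more than 4 CPM and the young ones near 1. Its nearest TSS is that of 4932430I15Rik. Shroom3 held 59 tested peaks as a host, and the 4 called ones, all higher, sat together within 10693 bp, while the median over the host was 0.08. Gas7, named for its expression in growth-arrested cells, had 9 tested peaks, all above 0, with a median of 1.39 and 3 calls. The 3 Gas7 calls spanned 50603 bp, and the call at chr11:67488312-67488469 (adjusted p = 0.032) was lost without any 1 of the 6 libraries, with adjusted p of 0.0569 to 0.219, and with DESeq2 (0.262). A second Gas7 call, at chr11:67538631-67538914, was lost without aged 4 (0.142) or young 2 (0.0667). In Asap2, a GTPase-activating protein for Arf proteins, 3 of 16 tested peaks were called higher within 1028 bp, and 2 of those calls were lost without aged 4 (0.316 and 0.111) or young 2 (0.370 and 0.108), and 1 of them also without aged 2 (0.0777) or young 1 (0.0856). DESeq2 called neither of that pair (0.182 and 0.0751), and total count scaling did not call the first (0.0699).

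**Figure D2:**
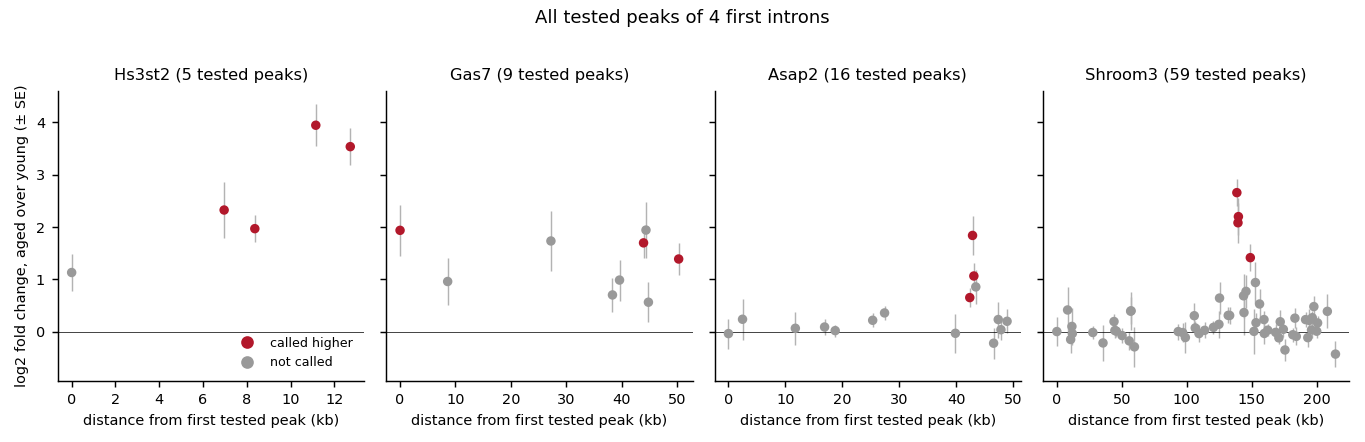
Log2 fold change, aged over young, of every tested peak in the first introns of Hs3st2, Gas7, Asap2 and Shroom3 (vertical axis, bars are SE). The horizontal axis is the distance from the host's first tested peak in kb, and red marks called peaks. All tested peaks of Hs3st2 and Gas7 lie above 0, while the called peaks of Asap2 and Shroom3 form a cluster among peaks near 0.

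Camkk2, a kinase that activates AMPK, and the zinc finger gene Tshz2 each had calls in both directions among the members of the host. Camkk2 had 2 peaks higher and 1 lower of 6 tested. The lower one, at chr5:122760866-122761157, had 2.34, 2.17 and 1.25 CPM in aged and 4.76, 4.26 and 3.03 CPM in young libraries, and its call was lost without aged 4 (adjusted p = 0.0657) or young 1 (0.0596). The more open of the higher pair, at chr5:122775133-122775549, had 29.7, 24.2 and 22.7 CPM in aged and 12.9, 15.6 and 12.1 CPM in young. Its log2 fold change was 0.89, against 1.21 for the other higher peak. These 2 sites of Camkk2, 1 lower and 1 higher, did not overlap between the ages. Tshz2 had 2 higher and 1 lower of 15, and each of the 3 calls was lost without at least 2 of the libraries. The lower one was lost without aged 1 (0.0625), young 2 (0.0796) or young 4 (0.0529). One of the higher peaks was lost without aged 4 (0.0562) or young 2 (0.134), the other was lost without aged 1 (0.0819), aged 4 (0.172), young 1 (0.0675) or young 2 (0.233), and with DESeq2 (0.121). The members of Gm20388 had 5 higher and 1 lower of 219; without this host the members had 194 higher and 72 lower of 21851 (1.22%).

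Other peaks that rose lay in genes of diverse function. The smallest p among peaks called higher was in C230037L18Rik, an antisense RNA gene with no function known here. At chr15:89480552-89481013 it had 16.6, 17.0 and 21.4 CPM in aged and 6.50, 5.15 and 4.46 CPM in young libraries (log2 fold change 1.72 ± 0.15, adjusted p = 5.30e-09). The peak in AI481877, spanned in RefSeq by Shoc1, a gene of meiotic crossing-over, had 21.8, 20.4 and 27.8 CPM in aged and 8.51, 8.17 and 8.76 CPM in young (log2 fold change 1.46). Both peaks had every aged library above every young one. ATAC-seq carries no strand, so an antisense host and its partner cannot be told apart.

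Metabolic and signalling hosts were among them. In Hk1, hexokinase 1, the first enzyme of glycolysis, a peak at chr10:62300398-62300871 had 6.29, 4.60 and 6.93 CPM in aged and 1.97, 1.29 and 1.75 CPM in young libraries, 3.55-fold higher. Every aged value of this peak lay above every young one. In Gnao1, a G protein alpha subunit best known in neurons and endocrine cells, a peak at chr8:93958555-93959007 had 4.87, 3.68 and 6.13 CPM in aged and 0.641, 1.19 and 0.796 CPM in young, 5.42-fold higher. In Elf2, an ETS transcription factor, a peak at chr3:51328676-51328867 had 4.01, 4.39 and 5.51 CPM in aged and 0.915, 0.990 and 0.478 CPM in young, 5.24-fold higher. The aged values of both lay above all young ones. Also higher was a peak in Lnx2, a ubiquitin ligase that binds Numb, at 7.52 ± 0.817 CPM in aged and 1.99 ± 0.355 CPM in young (SD, n = 3 each). A peak whose annotated host is Kcna5, a voltage-gated potassium channel, had 8.44, 7.52 and 11.8 CPM in aged and 2.38, 1.93 and 3.18 CPM in young. It lies 17230 bp from its nearest TSS, that of Kcna1, and no protein-coding RefSeq gene spans it. A further higher peak, in the unnamed gene ENSMUSG00000072591, had 8.30 ± 1.62 CPM in aged and 2.86 ± 0.247 CPM in young.

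**Figure D3:**
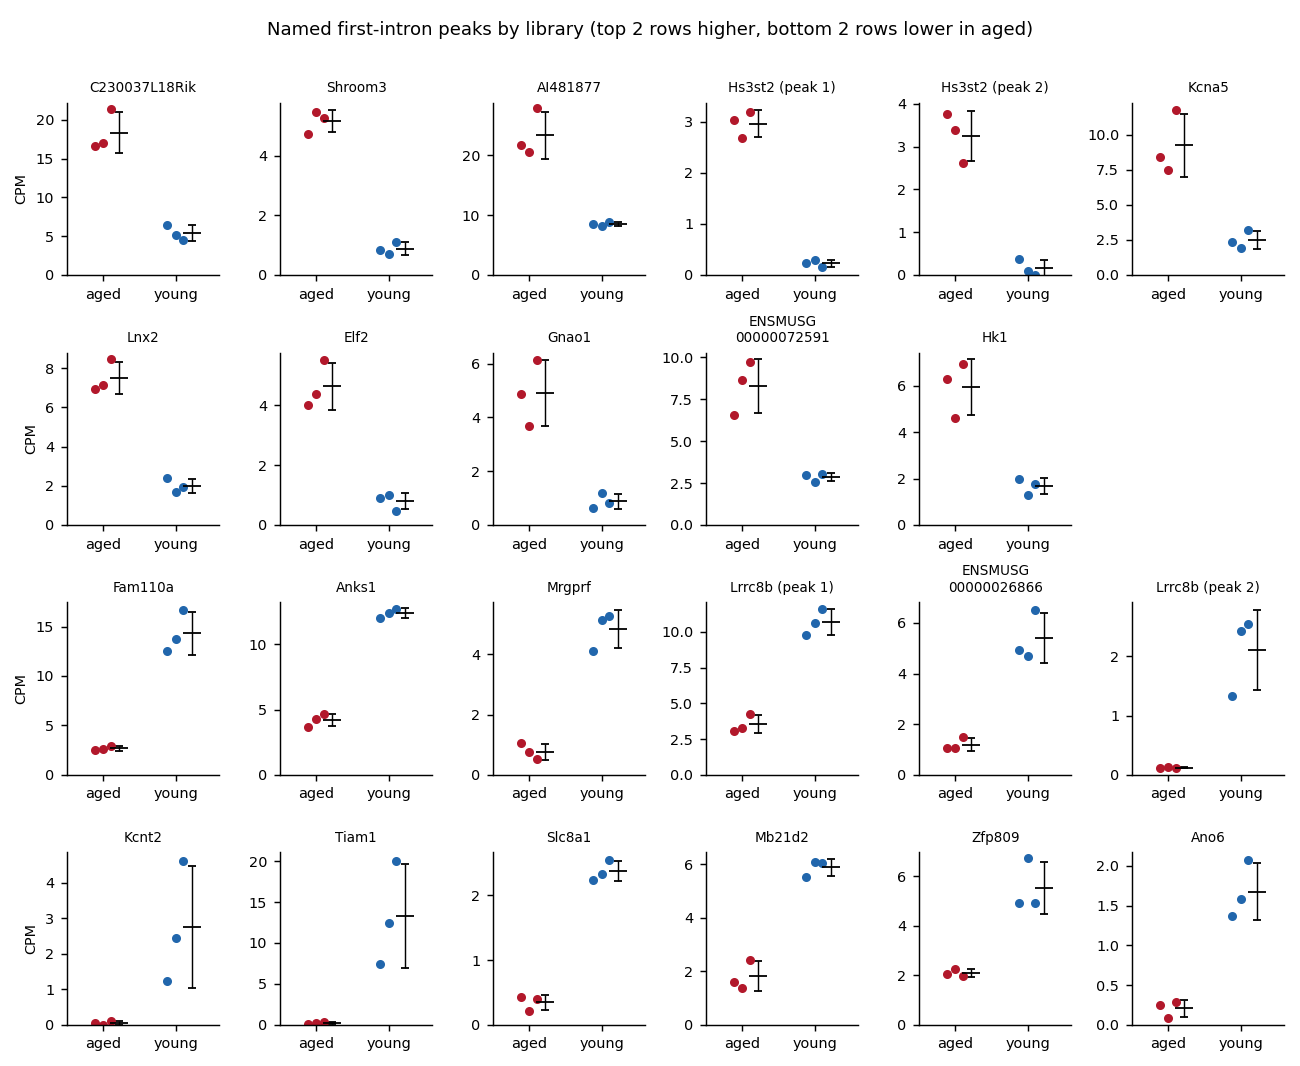
CPM (vertical axes, linear from 0, a scale for each panel) in each aged (red) and young (blue) library for 11 higher and 12 lower first-intron peaks, chosen by smallest p among called peaks without overlap; bars are mean ± SD of n = 3. Peak 1 of Hs3st2 is the one at 3.02, 2.67 and 3.18 CPM in aged, and peak 1 of Lrrc8b the one at 9.79, 10.6 and 11.6 CPM in young.

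Peaks that fell in aged included several that were almost closed there. In Tiam1, an exchange factor that activates the GTPase Rac, a peak at chr16:89962875-89963288, 167799 bp from the nearest TSS, had 0.0616, 0.251 and 0.341 CPM in aged libraries, against 7.37, 12.4 and 20.1 CPM in young ones. The aged counts were 1, 6 and 6 and the young ones 161, 251 and 126. On the sums, 13 and 538, the young level was 49.5 times the aged one (95% exact interval 28.7 to 93.5, counting error only), and the log2 fold change was -5.75 ± 0.46 (adjusted p = 4.49e-06). The young libraries themselves were far apart at this site, and all lay above the aged ones. In Kcnt2, a sodium-activated potassium channel, a peak at chr1:140249773-140250084 had 1, 0 and 2 counts in aged, against 27, 49 and 29 in young, a young level 41.8 times the aged one with an interval of 13.9 to 206. In Slc8a1, the sodium-calcium exchanger, a peak at chr17:81550890-81551306 had 0.431, 0.209 and 0.398 CPM in aged and 2.24, 2.33 and 2.55 CPM in young. In Ano6, a membrane protein that scrambles phospholipids, a peak at chr15:95855538-95855725 had 0.247, 0.0836 and 0.284 CPM in aged and 1.37, 1.58 and 2.07 CPM in young. All 4 rest on few aged counts, at most 19 over the 3 libraries.

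Fam110a had the smallest p of all members. Its peak at chr2:151970862-151971161, 2924 bp from the TSS, had 2.46, 2.63 and 2.90 CPM in aged and 12.5, 13.7 and 16.7 CPM in young libraries (log2 fold change -2.39 ± 0.17, adjusted p = 2.85e-11). Lrrc8b, a subunit of the volume-regulated anion channel, had a pair of peaks among those that fell. The one at chr5:105439635-105440114 had 3.08, 3.26 and 4.26 CPM in aged and 9.79, 10.6 and 11.6 CPM in young. The other, at chr5:105418297-105418402, had 2, 3 and 2 counts in aged against 29, 49 and 16 in young. Both sites of Lrrc8b thus had every aged library below every young one. In Anks1, an adaptor protein of Eph receptors, a peak at chr17:28013215-28013688 had 4.20 ± 0.482 CPM in aged and 12.4 ± 0.376 CPM in young (SD, n = 3 each), with every aged library below every young one. In Mrgprf, an orphan G protein-coupled receptor, a peak at chr7:145302514-145302943 had 1.05, 0.752 and 0.511 CPM in aged and 4.12, 5.15 and 5.25 CPM in young. In ENSMUSG00000026866, whose peak RefSeq places inside Kynu (kynureninase, of tryptophan breakdown), the values were 1.05, 1.04 and 1.48 CPM in aged and 4.94, 4.70 and 6.53 CPM in young. The ages did not overlap at any of these peaks, as their choice required. In Zfp809, a zinc finger protein that silences retroviruses in mouse embryonic cells, a peak 1327 bp from the TSS had 2.03, 2.26 and 1.99 CPM in aged and 4.94, 6.74 and 4.94 CPM in young. The last, in Mb21d2, had 1.81 ± 0.560 CPM in aged and 5.89 ± 0.309 CPM in young. The calls and directions of these 23 peaks held under each of 11 alternatives, namely other scalings, no filter, DESeq2, the replicate block and leaving out each library.

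A called peak was not always alone in its host. Over the hosts with a peak called higher, leaving out Gm20388, the 864 other tested members had a median log2 fold change of 0.11, and 66.1% lay above 0, against 50.5% of all members. Over the hosts with a peak called lower, the 398 other members had a median of -0.04, and 45.0% lay above 0. More than 1 peak was called higher in 27 hosts and lower in 6.

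Summing the members of each host gave a value per host gene. Of 6680 tested hosts, 97 (1.45%) were called by edgeR, 70 higher (1.05%) and 27 lower (0.404%). With the replicate block the counts were 217 and 98, without aged 4 32 and 22, and without young 2 37 and 21. Of the 97, 25 had a single member, and 11 were called though no peak of theirs was. On the scale of CPM of the summed first-intron counts, Hs3st2 had 94.2, 100.2 and 93.0 in aged and 18.1, 16.3 and 18.1 in young (log2 fold change 2.46 ± 0.17, adjusted p = 4.08e-10). The long non-coding RNA gene Gm12153 had 178, 164 and 188 in aged and 91.8, 73.7 and 89.1 in young (1.06 ± 0.13). Both lay wholly above young. C230037L18Rik, AI481877 and Hk1 were also among the higher sums of smallest p, with log2 fold changes of 1.72, 1.38 and 1.98. Lowest by p among those that fell was Lrrc8b, with 34.8, 33.4 and 44.1 in aged and 105.6, 117 and 138 in young (-1.66 ± 0.16, adjusted p = 1.03e-07). Mrgprf, Tiam1, ENSMUSG00000026866, Kcnt2 and Zfp809 followed, each with 1 member.

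To set the intron beside the promoter, the first-intron sum was compared with the sum of the peaks within 1000 bp of a TSS of the same gene, as log2 of CPM + 0.5, in one limma model of the difference. Of 3900 genes with both, 15 (0.385%) were called, 8 with the intron above the promoter in its change and 7 below it, and with the replicate block 44 and 24. Without each library in turn, 6 of the 15 kept their call and 9 lost it at least once, with adjusted p up to 0.269. In 7 genes the intron was called by edgeR and the promoter was not, in 7 the reverse, and in Cacng2 both were, in opposite directions.

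In Hs3st2 the intron changed and the weak promoter did not pass the test. Its intron sum was 12.3 ± 0.633 CPM in aged and 2.27 ± 0.131 CPM in young, while its promoter had 0.892 ± 0.305 and 1.17 ± 0.484 CPM, a difference in log2 change of 2.45 ± 0.31 (limma, adjusted p = 0.00128). The start window printed above is the only one of Hs3st2. Kif11, the kinesin motor of the mitotic spindle, had an intron sum of 7.64, 5.56 and 4.94 CPM in aged and 3.39, 2.62 and 1.43 CPM in young, and a promoter of 37.2, 33.1 and 26.7 CPM in aged and 41.4, 34.7 and 33.6 CPM in young. Its difference of 1.35 ± 0.23 (adjusted p = 0.0125) was not called without aged 1 (0.0791), aged 2 (0.0700) or aged 4 (0.128). Hebp1, a heme-binding protein, was the third such gene with the intron above, at 1.23 (adjusted p = 0.0158), and its call was lost without aged 1 (0.0791), aged 2 (0.113), aged 4 (0.140) or young 2 (0.0643).

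In the other direction, Lrrc8b had an intron sum of 4.82 ± 0.794 CPM in aged and 15.6 ± 2.52 CPM in young, and a promoter of 42.9 ± 1.15 and 45.2 ± 3.31 CPM (difference -1.53 ± 0.20, adjusted p = 0.00128). Zfp809 had an intron of 2.09 ± 0.144 CPM in aged and 5.54 ± 1.04 CPM in young beside a promoter of 46.6 ± 2.22 and 49.6 ± 1.64 CPM. Both promoters overlapped between the ages. The Zfp809 difference of -1.12 (adjusted p = 0.0182) was lost without aged 1 (0.0868), aged 2 (0.113), aged 4 (0.140) or young 2 (0.178). Fam110a and Glrx5, a protein of iron-sulfur cluster assembly, were the other pair, at -0.83 and -0.93, and each lost its call without any of 4 or more libraries (adjusted p up to 0.269 for Fam110a and 0.230 for Glrx5). The Fam110a call was also lost with a promoter window of 500 bp (0.0717), and the Glrx5 call with a pseudocount of 1 CPM (0.0509). In all 7 genes called at the intron and not at the promoter, a promoter peak lay over a RefSeq start window of the gene.

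Of the 7 genes called at the promoter side alone, 6 had a RefSeq start window, and a promoter peak lay over one in 3 of them; 4921506M07Rik had none. In Thbs3, thrombospondin 3 of the extracellular matrix, the intron had 5.64 ± 0.479 CPM in aged and 5.83 ± 0.769 CPM in young, beside 21.1, 20.9 and 25.5 CPM in aged and 5.17, 4.36 and 4.78 CPM in young at the peaks assigned to its TSS (difference -2.16 ± 0.22, adjusted p = 0.000167). Those peaks, between chr3:89224208 and 89225361, overlap no RefSeq start window of Thbs3. Tnrc6c, a protein of microRNA silencing, and Sufu, an inhibitor of Hedgehog signalling, also had introns that were not called beside start-site peaks that were higher in aged, with differences of -1.67 and -1.45, and their peaks too lay over no RefSeq start. The Sufu call was lost without aged 2 (0.0959), aged 4 (0.113) or young 2 (0.0888). The intron was not called, and the start-site peak was lower in aged, in 4921506M07Rik (2.25), in Ethe1, a mitochondrial enzyme of sulfide breakdown (2.09), in 2410017I17Rik (1.13) and in Qk, an RNA-binding protein (1.57). The last 2 lost their call without any of 4 or more libraries, with adjusted p up to 0.208 and 0.218. The Qk start-site peak was weak, with 0.123, 0.0418 and 0.114 CPM in aged and 1.01, 1.44 and 1.27 CPM in young. With a pseudocount of 1 CPM the Qk call was lost too (0.0824). The Ethe1 call was lost without aged 2 (0.113), aged 4 (0.156) or young 2 (0.103). In Cacng2, a regulator of AMPA-type glutamate receptors, the intron had 6.78, 6.77 and 5.91 CPM in aged and 3.43, 4.26 and 4.30 CPM in young, while the start-site peak had 6.59, 8.36 and 6.53 CPM in aged and 15.3, 14.9 and 15.8 CPM in young. The intron and the start-site peak of Cacng2 each had no overlap between the ages, in opposite directions. That start-site peak, too, overlapped no RefSeq start window of its gene. Of the 97 called hosts 53 had both values; 8 of their promoters were called, 7 in the direction of the intron, against 1.74% of all 13880 promoters.

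**Figure D4:**
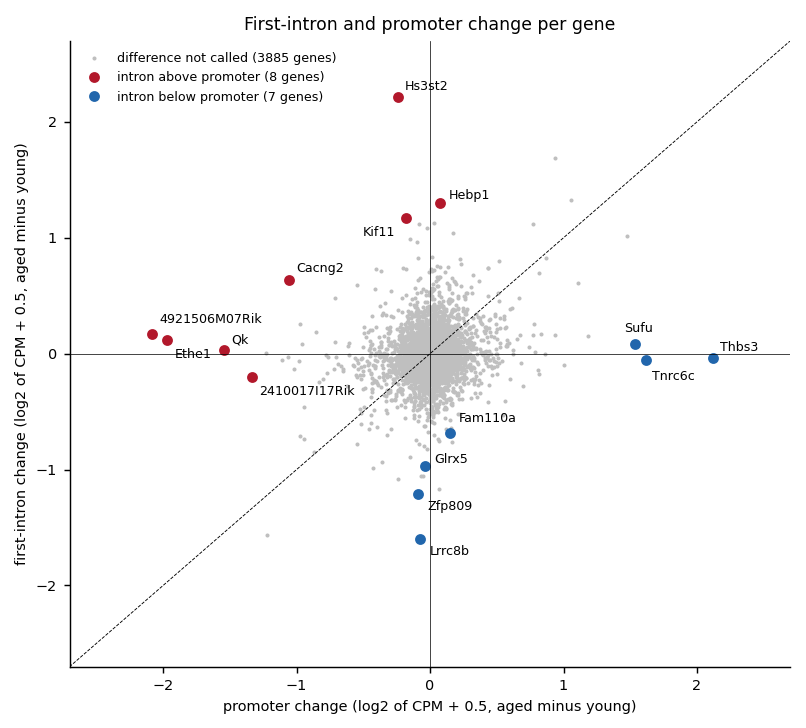
Change of the first-intron sum (vertical axis) against change of the promoter sum (horizontal axis), both as log2 of CPM + 0.5, aged minus young, for 3900 genes; named points are the 15 genes whose difference was called, red for the intron above the promoter and blue for below. Of these, 7 lie along the horizontal line, where the promoter alone was called, and the dashed line marks equal change.

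Start sites inside first introns were a small part of the members. Of 24367 members on chromosomes with RefSeq windows, 339 (1.39%) overlapped a start window of some gene, and 2 of the 320 tested (0.625%, against 1.23% of members and 1.6% of all peaks) were called, both lower in aged. DESeq2 called neither (0.171 for the peak in Dgka and 0.0556 for that in Mxi1). The Dgka peak, chr10:128737501-128737665, whose window is printed above, had 0.247, 0.167 and 0.568 CPM in aged and 0.915, 1.49 and 0.955 CPM in young (log2 fold change -1.84 ± 0.46, adjusted p = 0.0256). This call was lost without aged 1 (0.0936), aged 2 (0.147) or young 2 (0.421). The other, in the intron of Mxi1, a partner of Max that opposes Myc, overlapped the start window of Gm30541 by 19 bp and had a log2 fold change of -1.73 (adjusted p = 0.0109; 0.209 without young 2).

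Genes of intestinal function were grouped in 9 lists, which together had 1123 tested members in 228 hosts. Of these 7 were called higher and 1 lower (0.712%, against 1.6% of all peaks), with a median log2 fold change of -0.00. Called members lay in 4 lists.

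Among nuclear receptors and their coregulators, 1 of 196 members was called, lower (0.51%, against 0.528% of all peaks), with a median of -0.02. It lay in Nr5a2, a receptor that controls genes of the crypt and of lipid metabolism. The peak at chr1:136952966-136953197 had 1.66, 1.80 and 1.31 CPM in aged and 4.12, 3.71 and 3.34 CPM in young libraries (log2 fold change -1.24 ± 0.23, adjusted p = 0.00140). All 3 aged values lay below all young ones. The second smallest p was in Nr1h4, the bile acid receptor, at -0.70 (adjusted p = 0.122, and 0.0228 with the replicate block).

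Among genes of Wnt, Notch, Hippo, BMP and EGF signalling, 3 of 240 members were called higher (1.25%, near the 1.07% of all peaks), and the median was -0.02. Rbpj, the DNA-binding factor of Notch signalling, had 5.36, 4.85 and 5.17 CPM in aged and 2.29, 3.57 and 2.23 CPM in young at chr5:53471206-53471399 (0.87 ± 0.21, adjusted p = 0.0181). This call was lost without aged 1 (0.0694), aged 4 (0.0554) or young 1 (0.167), and with DESeq2 (0.0742). Smad3, a transducer of TGF-beta signals, had a pair of called peaks within 500 bp, the wider one with 3.76, 3.76 and 4.32 CPM in aged and 2.06, 2.13 and 2.71 CPM in young (0.83 ± 0.22, adjusted p = 0.0403). Both Smad3 calls were lost without aged 1 (0.140 for the narrower and 0.0785 for the wider), aged 4 (0.181 and 0.180), young 1 (0.327 and 0.194) or young 2 (0.105 and 0.265), and the wider one also without aged 2 (0.0618). Neither was called by DESeq2 (0.198 and 0.199), nor the wider one with total count scaling (0.0608).

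Among genes of inflammation, interferon and innate sensing, 3 of 109 members were called higher (2.75%, against 1.07% of all peaks), and the median was 0.02. DESeq2 called 1 of these 3. Jak1, the kinase shared by interferon and many cytokine receptors, had 5.49, 5.43 and 5.28 CPM in aged and 2.24, 3.27 and 2.07 CPM in young at chr4:101227427-101227797 (1.04 ± 0.21, adjusted p = 0.00251). The aged values were nearly equal and all above the young ones. A second Jak1 peak, at chr4:101253311-101253394, had 0.801, 0.836 and 0.681 CPM in aged and 0.137, 0.0990 and 0.159 CPM in young, and its call was lost without aged 2 (0.0650), young 1 (0.0655) or young 2 (0.149), and with DESeq2 (0.118). Tnip1, which restrains NF-kB signalling, had 3.88, 2.84 and 3.24 CPM in aged and 2.15, 1.09 and 1.91 CPM in young (0.97 ± 0.26, adjusted p = 0.0478), and its call was lost without aged 1 (0.214), aged 4 (0.114) or young 2 (0.552), with DESeq2 (0.224) and with total count scaling (0.0567).

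Among genes of stress, senescence and AP-1, 1 of 57 members was called, higher (1.75%, against 1.07% of all peaks), with a median of -0.03. It lay in Igf1r, the receptor of insulin-like growth factor 1, with 1.36, 2.80 and 2.90 CPM in aged and 0.687, 0.495 and 0 CPM in young at chr7:67958137-67958396 (2.23 ± 0.39, adjusted p = 0.000681). A neighbour at chr7:67959557-67959708 had 0.801, 1.55 and 0.681 CPM in aged and 1.88, 2.13 and 2.07 CPM in young, a log2 fold change of -0.94 that was not called (adjusted p = 0.172) but was with the replicate block (0.0456) and without aged 2 (0.0200). The 2 Igf1r sites had opposite signs.

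The other 5 lists had no member called by edgeR or by DESeq2. An unadjusted p below 0.05 was reached by 8.08% of all tested members and 8.82% of all tested peaks. In these lists there were 13 of 101 members of intestinal transcription factors, 12 of 254 of junctions, brush border and cytoskeleton, 5 of 90 of nutrient absorption and metabolism, 3 of 54 of the circadian clock and 2 of 29 of the secretory lineage. Creb3l3, a transcription factor of lipid metabolism, had an open peak at chr10:81095204-81095738 with 65.9, 50.9 and 67.3 CPM in aged and 51.9, 43.1 and 45.4 CPM in young (0.38 ± 0.12, adjusted p = 0.125). That peak was called with the replicate block (8.54e-05), with total count scaling (0.0353) and without young 1 (0.0180). Grhl2, an epithelial transcription factor, had 3.51, 3.89 and 3.29 CPM in aged and 2.43, 2.03 and 1.91 CPM in young (0.72 ± 0.22, adjusted p = 0.124, and 0.0257 with the block). Hepacam2 of the secretory lineage had a log2 fold change of -0.75 (adjusted p = 0.207, and 0.0480 with the block). In Espn, of the brush border, it was 0.82 (0.242), in Slc11a2, the iron transporter, 0.33 (0.460), in Creb3l1 -0.96 (0.507) and in Cry2 0.32 (0.487).

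**Figure D5:**
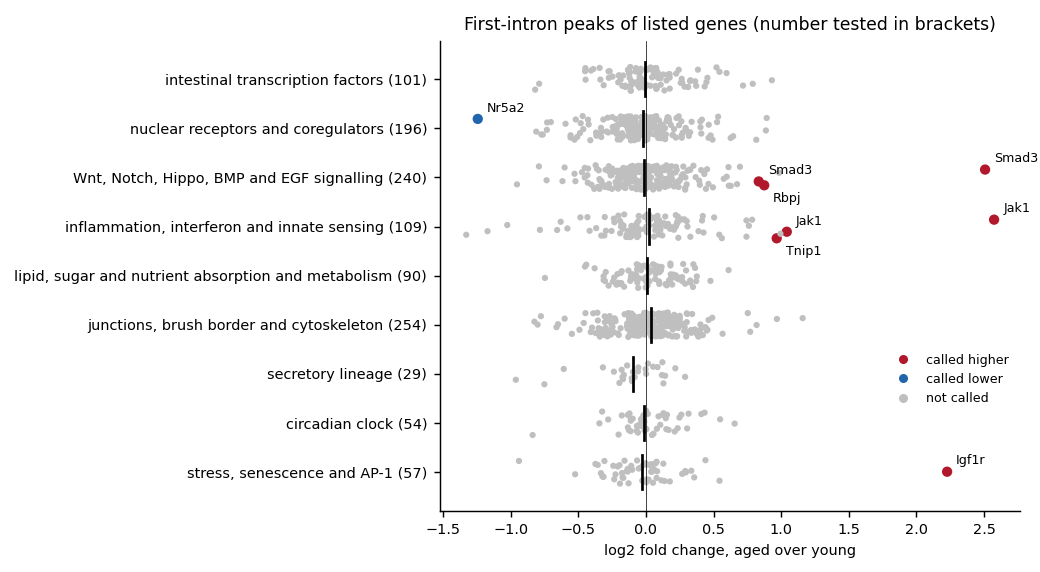
Log2 fold change, aged over young (horizontal axis), of every tested first-intron peak in the hosts of each of 9 gene lists (rows, number tested in brackets); black bars are medians, red peaks were called higher and blue lower. The medians lie between -0.10 and 0.04, and the called peaks lie in 4 of the lists.

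Members in genes that mark cell types, epithelial ones included, gave 0 calls by edgeR and by DESeq2, where edgeR called 1.6% of all tested peaks. With so few members tested, 0 calls cannot tell whether other cells were present. At an unadjusted p below 0.05 there were 0 of 10 members in leukocyte markers, 1 of 20 in stromal, endothelial, muscle and neural markers and 4 of 27 in epithelial markers. The smallest p of each were in Lck at -0.27 (adjusted p = 0.796), in Elavl4 at -1.33 (0.279) and in Hnf4a at 0.79 (0.267).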

How the data were processed

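The authors deposited a table of counts, whole numbers with no scaling, for every consensus peak in 6 ATAC-seq libraries (24 sample records, 4 sequencing lanes a library). Positions (GRCm38, counted from 1), annotation text and TSS distances come from their peak annotation. The submitters' processing notes name Trim Galore 0.6.4, BWA 0.7.17-r1188, SAMtools 1.10, Picard 2.23.1, MACS2 2.2.7.1 and featureCounts 2.0.1. Not given in the sources used here are the counting of reads or fragments, peak caller settings, any Tn5 shift, the handling of multi-mapping reads and the annotation release, so reads of near-identical copies could be shared between peaks.

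Counts were filtered with filterByExpr over all peaks, scaled by TMM and compared with edgeR 4.0.16 in R 4.3.3 (quasi-likelihood, robust, age as the only term), with Benjamini-Hochberg adjustment over all 129588 tested peaks and a threshold of 0.05. Log2 fold changes are aged over young, and SE are those implied by the test. CPM use TMM-scaled totals of all tested peaks; host sums were scaled to first-intron totals. The intron was compared with the promoter in limma 3.58.1, with a pseudocount of 0.5 CPM. DESeq2 1.42.0 was an alternative. The edgeR test on peaks and the intron-promoter test were run on simulated counts drawn with a common dispersion. The host-sum, blocked and DESeq2 fits were not. The simulated counts held no pairing by replicate number, so they cannot check a fit that leaves such a pairing out. Gene lists were matched to hosts by symbol or older symbol (412 of 431 genes); 940 members lie in 338 hosts without a symbol. Sequences are from RefSeq (GRCm38.p6), and motifs were searched as plain text on both strands.

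The members, lists and rules were chosen with earlier results of these data known. Named were the 12 called peaks without overlap of smallest p in each direction, the 6 host sums and 5 intron-promoter differences of smallest p in each direction, all called peaks and the 2 smallest p of each list, and hosts with 3 or more calls; a few items that these rules select are not reported here. Same-numbered libraries of different age deviated together from their age's mean, with correlations of 0.236, 0.182 and 0.123 for numbers 1, 2 and 4 over all peaks, against -0.194 to 0.0287 for the other pairs. The same-number correlations all exceed 0.1, so an alternative fit took the numbers as a block that pairs the libraries, though no label says what they mark. The main calls and p-values come from the fit with age as the only term and leave this pairing out. Every pair of libraries differed by more than sampling noise (chi-square per member peak 1.55 to 3.10). Counts limit the precision of weak peaks most in young 4.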

Additional observations from a re-analysis of the deposited data

How the results depend on the processing

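The paired fit, with the replicate number as a block, called 355 peaks higher and 177 lower, 217 and 98 host sums, and 44 genes with the intron above and 24 below its promoter, against 199 and 73, 70 and 27, and 8 and 7 without the block. Of the 272 called peaks all but 1 were called with the block, and beside the calls named with their blocked p it changed no other call of a named peak, host sum or gene. DESeq2 called 115 peaks higher and 44 lower, all among the 199 and 73. An adjusted p below 0.01 left 114 and 40. Leaving out each library in turn gave 101 to 206 higher and 43 to 76 lower peaks, 32 to 83 higher and 20 to 30 lower host sums, and 3 to 12 genes above and 3 to 9 below. Under RLE scaling, total count scaling, no filter, a rule of 2000 bp, a threshold of 0.10 or a fit on members alone, the counts stayed within 1.5 times. The difference in the share of counts, 0.0573 points, ranged from -0.205 without young 1 to 0.246 without young 4, with -0.0543 without aged 4, and no p was below 0.4. Of 759 values of named peaks under alternatives, 65 lost their call, 9 gained one and none changed sign. The 15 genes of the intron-promoter comparison lost their call in 38 of 165 values, and the named host sums in none of 165. Low counts, at a median of 14 a member in young 4, limit what could be called in weak peaks.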
